A study of Mus musculus with 6 samples.

Results

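Prostaglandin synthesis and receptor genes were followed in C2C12 mouse myoblasts in which PARP2 had been silenced. The 10 listed genes encode the cyclooxygenases Ptgs1 and Ptgs2, the terminal synthases Ptges, Ptgis and Ptgds, the inactivating dehydrogenase Hpgd and the PGE2 receptors Ptger1, Ptger2, Ptger3 and Ptger4. A gene was read from the brightest probe set whose annotation names only that gene, by the mean of the 6 arrays. This gave 9 of the 10 genes, out of 19938 genes read in the same way. Ptgs1 was not measured here, since no probe set of the annotation used here names it alone. Each of the 9 genes had 1 such probe set, so the choice of the brightest one did not matter for them.

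The silenced cells were shPARP2 C2C12 cells, which received a lentiviral shRNA against PARP2, and the control cells were scPARP2 C2C12 cells, which received a scrambled shRNA instead. Lentivirus was given at a multiplicity of infection of 40, and according to the methods of the study the silencing was maintained under puromycin. C2C12 is an established mouse myoblast line that can be grown as single cells or made to fuse into myotubes. Cells were grown in high-glucose medium with serum, and 250 ng of total RNA of each sample was hybridized to its own Affymetrix mouse gene array, with 3 arrays of shPARP2 and 3 arrays of scPARP2 cells. Each condition is 1 transduced line, so the silencing cannot be told apart from any other difference between the lines. Whether the 3 samples of a line came from separate cultures is not stated, so each p-value weighs a difference against a spread between samples that may be technical.

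Prostaglandins are short-lived lipid signals made from arachidonic acid. Phospholipases release the arachidonic acid from membranes, a cyclooxygenase turns it into prostaglandin H2, and terminal synthases convert this into PGE2, prostacyclin (PGI2), PGD2 and other prostanoids. These leave the cell, act on G protein-coupled receptors and are then inactivated by Hpgd and by reductases. In mouse muscle, PGE2 acting on Ptger4 is known to promote the expansion of muscle stem cells, and prostaglandins are known to affect the migration and fusion of myoblasts.

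Among the 9 measured prostaglandin genes, 2 rose (Ptgis and Ptger1), 3 fell (Ptger4, Hpgd and Ptges) and 4 did not pass the test (Ptgs2, Ptgds, Ptger2 and Ptger3) in shPARP2 cells against scPARP2 cells. A gene passed at an adjusted p under 0.05 in limma, adjusted by Benjamini-Hochberg across the full table of 35556 probe sets. By the same rule 12.4% of all genes were higher, 11.6% were lower and 24.0% passed in either direction. The log2 fold changes of the 9 genes ran from -0.89 for Ptger4 to 1.33 for Ptgis, with a median of -0.05, against a median of -0.02 over all genes. The median size of the change, without its sign, was 0.37 for the 9 genes and 0.14 for all genes. For 7 of the 9 genes the arrays of the lines did not overlap, as was the case for 42.1% of all genes. The 9 genes are few and were chosen with results of these arrays known, so the shares describe them and nothing particular to the group is read from them.

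**Figure D1:**
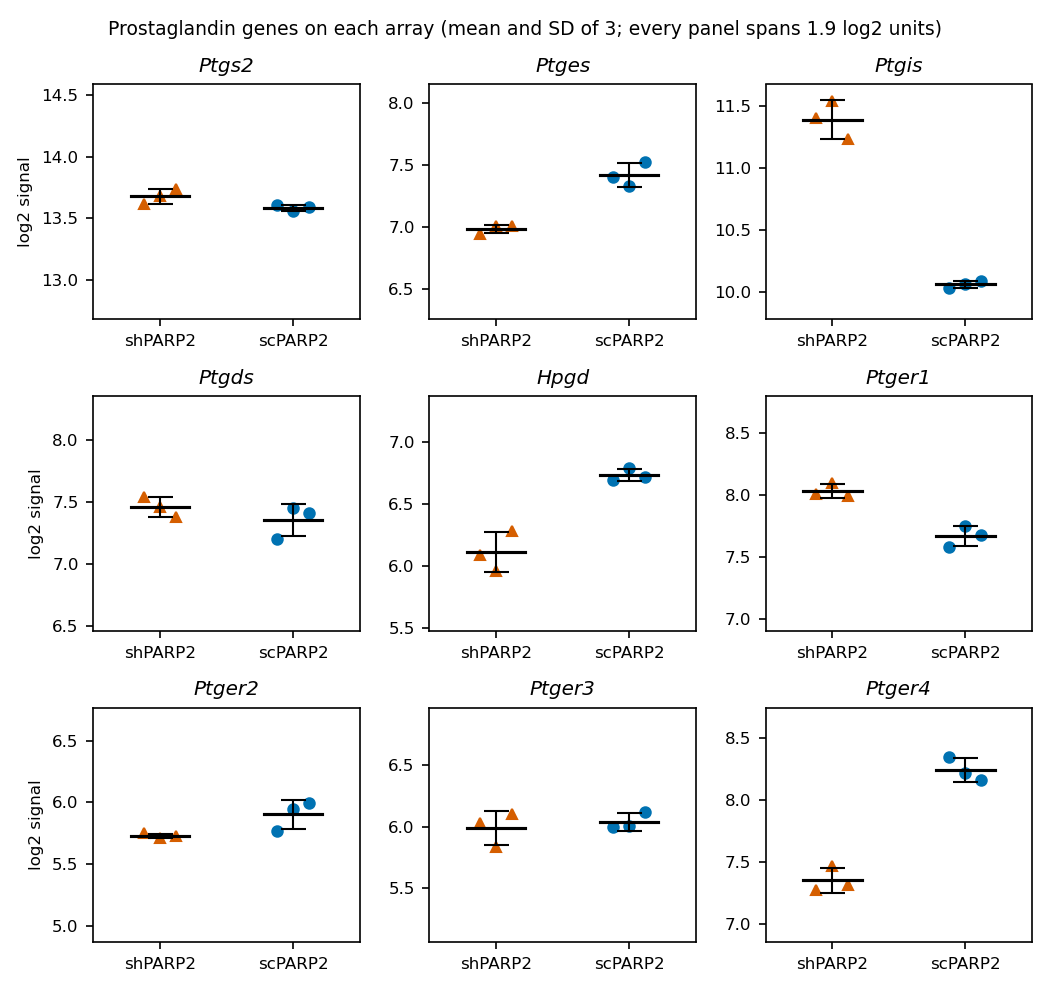
Log2 signal of the 9 prostaglandin genes on each array (vertical axes, each spanning 1.9 log2 units), with shPARP2 cells as triangles, scPARP2 cells as circles and bars for the mean and SD of 3 arrays. Ptgis stands at 11.23 to 11.54 in shPARP2 cells, above 10.03 to 10.08 in scPARP2 cells, while Ptger4 stands at 7.28 to 7.47, below 8.17 to 8.35.

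The silenced gene was checked first. Parp2 (probe set 10414497) read 7.86, 8.14 and 7.91 on the log2 scale in shPARP2 cells, against 8.94, 9.13 and 9.05 in scPARP2 cells. Its log2 fold change was -1.07 (SE, the moderated standard error, 0.10; limma adjusted p = 0.00103), and the arrays of the lines did not overlap. The arrays had medians between 7.04 and 7.18. The shPARP2 arrays were more scattered than the scPARP2 arrays (SD of 0.142 against 0.0753 for the median probe set). A log2 signal says how bright a probe set is, and since probe sets differ in brightness for equal amounts of RNA, levels of different genes were not ranked.

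Ptgs2, the inducible cyclooxygenase COX-2, catalyses the committed step of prostanoid synthesis and is usually low in resting cells. Its probe set (10350516) read 13.62, 13.69 and 13.74 in shPARP2 cells, against 13.61, 13.56 and 13.59 in scPARP2 cells. It was among the brightest of the arrays in both lines, at rank 84 of 35556 probe sets by mean signal. The difference was 0.09 on the log2 scale (SE 0.06, limma adjusted p = 0.411), with a 95% confidence interval from -0.06 to 0.25, or 0.959-fold to 1.19-fold. All 3 shPARP2 arrays were above the scPARP2 arrays, but the gap was small and did not pass the test. Under the 14 alternatives that changed the fit, the log2 difference ran from 0.06 to 0.18 (limma adjusted p from 0.0982 to 0.655). The largest was that with quantile normalization, and none passed. Of the 84 probe sets at least as bright, 3 passed the test (3.57%, against 18.5% of all probe sets), and the largest change among them was 0.41 on the log2 scale. How far the signal of such bright probe sets can still follow the RNA was not tested, so the interval covers the signal and not necessarily the amount of RNA.

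Ptgis, the prostacyclin synthase, showed the largest change of the 9 genes. Its probe set (10489878) read 11.40, 11.54 and 11.23 in shPARP2 cells, against 10.03, 10.06 and 10.08 in scPARP2 cells. The groups were separated by more than 1 log2 unit, and the shPARP2 arrays varied more among themselves than the scPARP2 arrays (SD of 0.15 against 0.03, n = 3 each). The log2 fold change was 1.33 (SE 0.09, limma adjusted p = 0.000371), a 2.52-fold higher signal with a 95% confidence interval from 2.16-fold to 2.94-fold.

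Ptges, the inducible microsomal synthase that makes PGE2 from the product of Ptgs2, fell. It (probe set 10481518) read 6.95, 7.00 and 7.00 in shPARP2 cells, against 7.40, 7.33 and 7.53 in scPARP2 cells. Every shPARP2 array was below every scPARP2 array. The log2 fold change was -0.43 (SE 0.07, limma adjusted p = 0.00972), which left 74.0% of the signal. Its mean signal was brighter than 51.4% of all probe sets. The brightest of the mast cell, endothelial and adipocyte markers listed below stood at 50.8%, 53.8% and 51.4%. Brightness alone therefore does not show whether Ptges was expressed.

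Within each array, Ptgis was therefore set against Ptges, a pair chosen after their values were seen. The log2 signal of Ptgis minus that of Ptges was 4.46, 4.53 and 4.23 in shPARP2 cells, against 2.63, 2.73 and 2.56 in scPARP2 cells. The difference between the lines was 1.77, and all shPARP2 arrays were above all scPARP2 arrays (exact permutation test, two-sided, p = 0.1, the smallest p that 3 arrays against 3 allow). Ptgis was higher and Ptges lower on every shPARP2 array, so this separation and its p were fixed by the choice of the pair. They add no support beyond the values of each gene. The ratio compares the change of the synthases and not their amounts.

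Ptgds, the lipocalin-type synthase of PGD2, did not pass the test. Its probe set (10480734) read 7.54, 7.46 and 7.37 in shPARP2 cells, against 7.20, 7.45 and 7.41 in scPARP2 cells. The groups overlapped, and the log2 difference was 0.11 (SE 0.09, 95% confidence interval from -0.11 to 0.33, limma adjusted p = 0.530).

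Hpgd, the dehydrogenase that carries out the first step of prostaglandin inactivation, fell. It (probe set 10571840) read 6.09, 5.96 and 6.29 in shPARP2 cells, against 6.70, 6.80 and 6.72 in scPARP2 cells. All shPARP2 arrays were below the scPARP2 arrays, and they were also more scattered (SD of 0.16 against 0.05, n = 3 each). The log2 fold change was -0.63 (SE 0.10, limma adjusted p = 0.00655), which left 64.8% of the signal. The probe set was fairly dim, brighter than 35.9% of all probe sets, and its brightness does not show whether Hpgd was expressed.

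The PGE2 receptors did not move as a block: 1 rose, 1 fell and 2 did not pass, where 24.0% of all genes passed. Ptger4 (EP4), which couples to Gs and raises cAMP, fell. It (probe set 10427461) read 7.28, 7.47 and 7.31 in shPARP2 cells, against 8.35, 8.22 and 8.17 in scPARP2 cells. The groups were clearly apart, and the spread within them was alike (SD of 0.10 in both lines, n = 3 each). The log2 fold change was -0.89 (SE 0.09, limma adjusted p = 0.00117), which left 53.8% of the signal. It was the largest fall of the 9 genes.

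Ptger1 (EP1), which signals through calcium, rose to a smaller extent. It (probe set 10573210) read 8.01, 8.10 and 7.99 in shPARP2 cells, against 7.58, 7.75 and 7.68 in scPARP2 cells. The groups did not overlap, and the log2 fold change was 0.37 (SE 0.07, limma adjusted p = 0.0175), a 1.29-fold higher signal. The call was lost without scPARP2 replicate 1 (adjusted p = 0.0787) and without scPARP2 replicate 3 (adjusted p = 0.0763), while the log2 fold change stayed at 0.32 and 0.37.

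Ptger2 (EP2), the other receptor that couples to Gs, had a log2 difference of -0.17 that did not pass the test (SE 0.08, 95% confidence interval from -0.36 to 0.02, limma adjusted p = 0.214). Its probe set (10414271) read 5.748, 5.715 and 5.730 in shPARP2 cells, against 5.769, 5.942 and 5.998 in scPARP2 cells. The arrays of the lines did not overlap, but the gap to the lowest scPARP2 array was narrow.

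Ptger3 (EP3), which mainly couples to Gi and lowers cAMP, had a log2 difference of -0.05 (SE 0.09, 95% confidence interval from -0.27 to 0.17, limma adjusted p = 0.799). Its probe set (10497079) read 6.032, 5.833 and 6.102 in shPARP2 cells, against 5.993, 6.002 and 6.117 in scPARP2 cells, and the groups overlapped. The probe sets of Ptger2 and Ptger3 were dim, brighter than 24.1% and 27.6% of all probe sets. The arrays do not show whether these receptors were expressed at all.

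The receptors at either end of this range, chosen after their values were seen, were compared within each array. The log2 signal of Ptger1 minus that of Ptger4 was 0.74, 0.63 and 0.68 in shPARP2 cells, against -0.77, -0.47 and -0.49 in scPARP2 cells. The ratio of the signals differed by 1.26 on the log2 scale between the lines, without overlap (exact permutation test, two-sided, p = 0.1, the smallest p that 3 arrays against 3 allow). Ptger1 was higher and Ptger4 lower on every shPARP2 array, so this outcome too was fixed by the choice of the pair and adds no support.

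**Figure D2:**
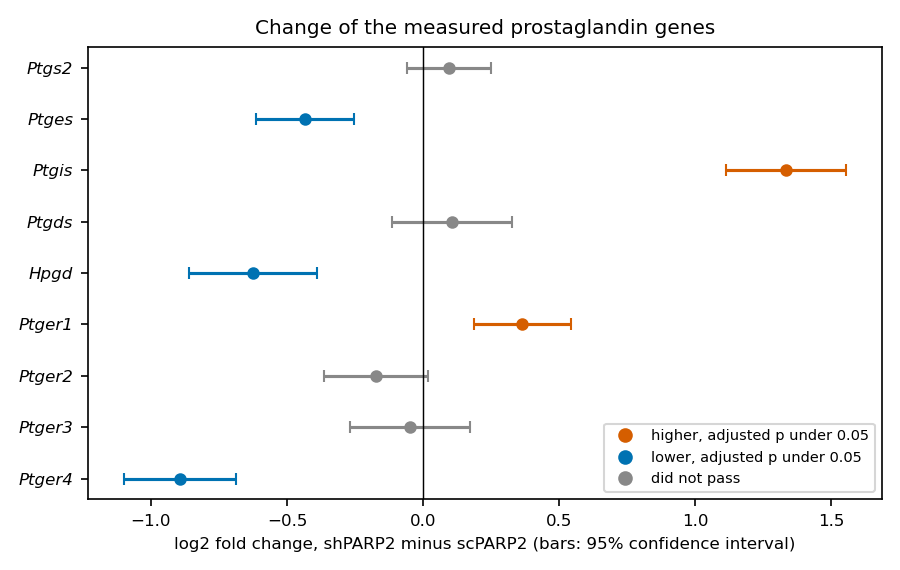
Log2 fold change of the 9 prostaglandin genes between shPARP2 and scPARP2 cells (horizontal axis), with points for the fitted difference of 3 arrays against 3 and bars for its 95% confidence interval. Ptgis and Ptger1 lie above 0, Ptges, Hpgd and Ptger4 lie below 0, and the intervals of Ptgs2, Ptgds, Ptger2 and Ptger3 include 0.

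**Figure D3:**
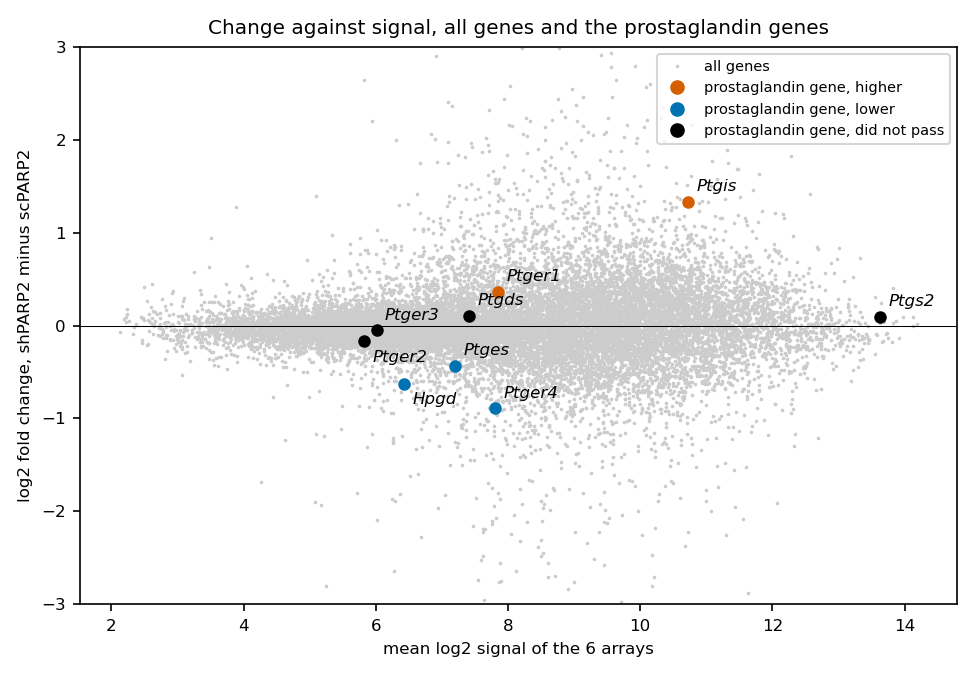
Log2 fold change between shPARP2 and scPARP2 cells (vertical axis) against the mean log2 signal of the 6 arrays (horizontal axis) for 19938 genes in grey and the 9 prostaglandin genes as larger points (orange higher, blue lower, black not passed), with 26 genes beyond the vertical limits not drawn. Ptgs2 lies at the bright end of the arrays close to 0, and Ptger2 and Ptger3 lie among dim genes close to 0.

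The promoters of 8 of the 10 listed genes were matched by symbol in the RefSeq table for GRCm38.p6. Ptgis and Ptger1, which rose, had no entry. The sequences of the 5 promoters that hold a GC box are shown, 3 of genes that fell and 2 of genes that did not pass the test (Ptgs2 and Ptger3), each as the 200 bases before the annotated start site. Capitals mark the GC box GGGCGG and the C/EBP motif TTGCNNAA on either strand, and overlapping copies run together.
Ptges (chr2:30903298-30903497, minus strand): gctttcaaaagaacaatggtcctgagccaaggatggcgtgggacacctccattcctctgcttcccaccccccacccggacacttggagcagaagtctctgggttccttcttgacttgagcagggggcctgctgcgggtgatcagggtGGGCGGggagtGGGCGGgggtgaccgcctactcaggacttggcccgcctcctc
Hpgd (chr8:56294352-56294551, plus strand): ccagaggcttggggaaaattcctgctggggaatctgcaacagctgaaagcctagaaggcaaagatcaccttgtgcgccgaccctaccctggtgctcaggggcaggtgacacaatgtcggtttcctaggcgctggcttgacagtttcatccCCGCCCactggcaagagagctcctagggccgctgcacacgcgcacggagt
Ptger4 (chr15:5244188-5244387, minus strand): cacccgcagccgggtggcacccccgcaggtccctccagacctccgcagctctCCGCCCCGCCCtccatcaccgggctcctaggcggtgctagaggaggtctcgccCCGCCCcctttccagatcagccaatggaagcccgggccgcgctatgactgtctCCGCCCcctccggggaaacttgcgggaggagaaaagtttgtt
Ptgs2 (chr1:150099831-150100030, plus strand): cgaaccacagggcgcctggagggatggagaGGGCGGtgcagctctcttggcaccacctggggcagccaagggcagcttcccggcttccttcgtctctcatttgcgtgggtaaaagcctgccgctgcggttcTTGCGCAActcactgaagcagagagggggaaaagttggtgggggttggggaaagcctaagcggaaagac
Ptger3 (chr3:157566676-157566875, plus strand): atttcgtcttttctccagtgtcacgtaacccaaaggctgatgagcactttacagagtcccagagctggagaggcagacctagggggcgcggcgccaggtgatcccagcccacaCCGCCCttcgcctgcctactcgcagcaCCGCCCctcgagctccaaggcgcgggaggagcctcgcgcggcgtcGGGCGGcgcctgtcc

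A GC box stood within 250 bases before the start site in each of the 3 genes that fell, with 4 copies in Ptger4, 2 in Ptges and 1 in Hpgd. Of the genes that did not pass the test, Ptger3 had 3 copies and Ptgs2 had 1, so the copies did not separate the genes that fell from those that did not pass. The motif was present in 5 of the 8 promoters, with none in Ptgds and Ptger2, and in 32.7% of the 32851 promoters of the table. The promoters with a GC box were rich in G and C, at 56.8% to 66.8%, against a median of 52.4% over all promoters. Such base content alone makes the motif more likely. Of the 8 promoters, 1 held the C/EBP motif TTGCNNAA, which was Ptgs2 with 1 match starting 69 bases before the start site, against 9.56% of all promoters. The AP-1 motif TGANTCA was found in Ptgds only, against 6.75% of all promoters. The cAMP response element TGACGTCA and the EGR1 motif GCGNGGGCG were found in none of the 8, against 1.55% and 4.70% of all promoters. These motifs were chosen after the array values were seen. A match is a description of the letters in this window and no evidence of binding. Only these exact strings were sought, so sites with other letters would be missed. The lack of a match is therefore no evidence against binding.

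The wider pathway was read from 7 lists with 72 further genes, of which 66 were measured. Of these, 19 rose, 8 fell and 39 did not pass the test, where 12.4% of all genes were higher and 11.6% were lower. Their median log2 fold change was 0.05, against -0.02 over all genes. Without scPARP2 replicate 1, 2 or 3 the genes that rose numbered 11, 11 and 10, while those that fell numbered 8 each time. Like the prostaglandin genes, the lists were drawn up with results of these arrays known.

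**Figure D4:**
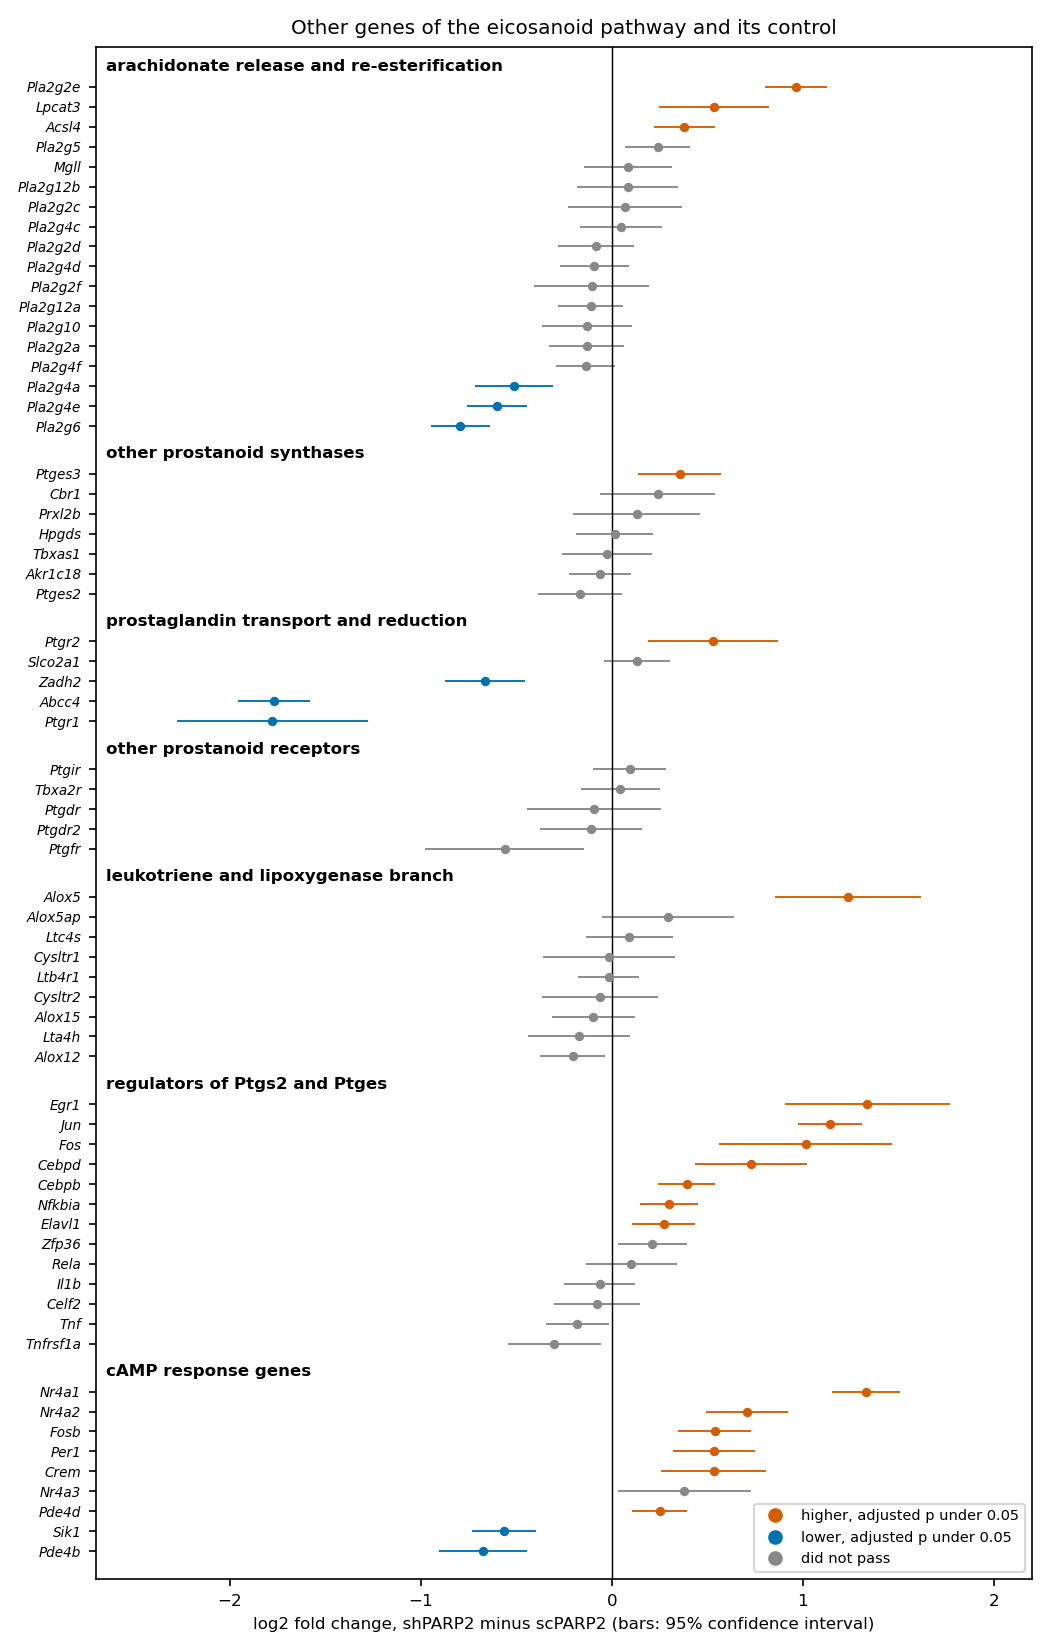
Log2 fold change between shPARP2 and scPARP2 cells (horizontal axis) of 66 genes that release, convert, carry or sense eicosanoids or that regulate Ptgs2 and Ptges, grouped by list, with bars for the 95% confidence interval. Among these genes the strongest falls are those of Ptgr1 and Abcc4, at -1.78 and -1.77, and Egr1, Nr4a1 and Alox5 lie highest, at 1.34, 1.33 and 1.24.

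Upstream of the cyclooxygenases, 3 genes of arachidonate release and re-esterification rose, 3 fell and 12 did not pass the test, of 18 measured. Thus 33.3% of this list passed, against 24.0% of all genes. Pla2g2e, a secreted phospholipase A2, read 11.20, 11.20 and 11.30 in shPARP2 cells, against 10.22, 10.32 and 10.26 in scPARP2 cells, a log2 fold change of 0.97 (SE 0.07, limma adjusted p = 0.000391). Pla2g6, the calcium-independent phospholipase A2 beta, read 9.17, 9.29 and 9.23 in shPARP2 cells, against 10.03, 10.05 and 10.00 in scPARP2 cells, a log2 fold change of -0.79 (SE 0.06, limma adjusted p = 0.000635). For both phospholipases the arrays of the lines were far apart compared with their spread.

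The other phospholipases that passed fell. Pla2g4e, of the cytosolic phospholipase family, had a log2 fold change of -0.60 (SE 0.07, limma adjusted p = 0.00184). Pla2g4a, the cytosolic phospholipase A2 alpha that supplies arachidonic acid to the cyclooxygenases, is named after its values were seen. It read 11.09, 11.09 and 11.32 in shPARP2 cells, against 11.68, 11.65 and 11.70 in scPARP2 cells, and its log2 fold change was -0.51 (SE 0.08, limma adjusted p = 0.00832). Lpcat3, which puts arachidonic acid back into phospholipids, had a log2 fold change of 0.54 (SE 0.12, limma adjusted p = 0.0252). Its call was lost when any scPARP2 array or shPARP2 replicate 1 was left out, with adjusted p-values from 0.0587 to 0.0933.

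Of the 7 other prostanoid synthases that were measured, 1 passed the test, or 14.3%, against 24.0% of all genes. Ptges3, known both as a cytosolic PGE2 synthase and as p23, a cochaperone of Hsp90, has 3 probe sets that name it alone. On the brightest one (10511865) it read 12.46, 12.44 and 12.70 in shPARP2 cells, against 12.21, 12.17 and 12.15 in scPARP2 cells, a log2 fold change of 0.36 (SE 0.09, limma adjusted p = 0.0383). The others had log2 fold changes of 0.42 (10539649, adjusted p = 0.0213) and 0.42 (10367100, adjusted p = 0.0710), so the probe sets agreed in direction and not in the call. The call of the brightest probe set was lost without any one of the scPARP2 replicates, without shPARP2 replicate 1 and with the replicate number as a block, with adjusted p-values from 0.0645 to 0.137. The other 6 synthases had log2 differences between -0.17 for Ptges2 and 0.24 for Cbr1, and did not pass.

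The genes of prostaglandin transport and reduction held the largest falls of the pathway, with 3 lower, 1 higher and 1 that did not pass. Of all genes, 24.0% passed. Abcc4 (MRP4), a pump that exports prostaglandins and cyclic nucleotides, read 9.98, 10.13 and 10.21 in shPARP2 cells, against 11.88, 11.85 and 11.89 in scPARP2 cells. Its log2 fold change was -1.77 (SE 0.08, limma adjusted p = 8.75e-05), which left 29.3% of the signal. Slco2a1, the carrier that takes up prostaglandins and the only gene of the list that did not pass, had a log2 difference of 0.13 (SE 0.07, limma adjusted p = 0.299).

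The reductases that act after Hpgd did not move in 1 direction. Ptgr1, the prostaglandin reductase that also oxidizes leukotriene B4, read 7.81, 8.24 and 7.38 in shPARP2 cells, against 9.51, 9.68 and 9.56 in scPARP2 cells. It had the widest spread of the list in shPARP2 cells (SD of 0.43 against 0.09, n = 3 each), and its log2 fold change was -1.78 (SE 0.21, limma adjusted p = 0.00234). Zadh2, now also named Ptgr3, had a log2 fold change of -0.66 (SE 0.09, limma adjusted p = 0.00353). Ptgr2 had one of 0.53 (SE 0.14, limma adjusted p = 0.0472), and this call was lost with centring of the arrays, with the replicate number as a block, without any one of the scPARP2 replicates and without shPARP2 replicate 1, with adjusted p-values from 0.0650 to 0.143.

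Of the 5 receptors for other prostanoids, none passed the test in limma, where 24.0% of all genes passed, and 1, Ptgfr, had an unadjusted p under 0.05. Ptgfr, the receptor of PGF2 alpha, read 6.91, 6.74 and 6.29 in shPARP2 cells, against 7.15, 7.08 and 7.39 in scPARP2 cells. The arrays did not overlap, and the log2 difference was -0.56 (SE 0.17, limma adjusted p = 0.0745). It passed where fewer probe sets were tested, at an adjusted p of 0.0386 without dim probe sets and of 0.0294 among single-gene probe sets. Ptgir, the prostacyclin receptor, read 7.78, 7.98 and 7.76 in shPARP2 cells, against 7.74, 7.75 and 7.75 in scPARP2 cells, a log2 difference of 0.09 (SE 0.08, 95% confidence interval from -0.10 to 0.29, limma adjusted p = 0.515). Thus the prostacyclin synthase Ptgis passed the test and the prostacyclin receptor did not.

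In the leukotriene and lipoxygenase branch, which competes for the same arachidonic acid, 1 of 9 measured genes passed, or 11.1%, against 24.0% of all genes. Alox5, the lipoxygenase that starts leukotriene synthesis, read 8.35, 8.82 and 8.19 in shPARP2 cells, against 7.22, 7.22 and 7.22 in scPARP2 cells. The scPARP2 arrays were nearly equal, and every shPARP2 array was higher, with a log2 fold change of 1.24 (SE 0.16, limma adjusted p = 0.00333). Its partner Alox5ap, the protein that presents arachidonic acid to the enzyme, had a log2 difference of 0.29 that did not pass (adjusted p = 0.238), and is named after its values were seen.

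Of the 13 measured regulators of Ptgs2 and Ptges, 7 rose and none fell in limma, where 12.4% of all genes were higher and 11.6% were lower. Of those with a lower signal, 2, Tnf and Tnfrsf1a, had an unadjusted p under 0.05. The list holds cytokines, NF-kappa B proteins, transcription factors and RNA-binding proteins known to control the transcription or decay of these mRNAs. It mixes activators with an inhibitor, so the count of rises gives no direction of control. Egr1, a zinc finger factor known to activate the Ptges promoter, read 11.11, 11.32 and 10.66 in shPARP2 cells, against 9.84, 9.53 and 9.69 in scPARP2 cells, a log2 fold change of 1.34 (SE 0.18, limma adjusted p = 0.00373). Jun and Fos, which form the AP-1 factor, had log2 fold changes of 1.14 (SE 0.07, adjusted p = 0.000247) and 1.02 (SE 0.19, adjusted p = 0.0126). The call of Fos was lost without scPARP2 replicate 3 (adjusted p = 0.0519). Cebpd, a C/EBP factor known to act on Ptgs2, had a log2 fold change of 0.73 (SE 0.12, adjusted p = 0.00860). The rest of those that rose were Cebpb, Elavl1 and Nfkbia, which encodes an inhibitor of NF-kappa B. They are named after their values were seen, with log2 fold changes of 0.39, 0.27 and 0.30 (limma adjusted p = 0.00678, 0.0390 and 0.0211). The cytokine genes Il1b and Tnf, named after their values were seen, had log2 differences of -0.06 and -0.18 and did not pass (adjusted p = 0.678 and 0.134). As given above, Ptgs2 did not pass the test and Ptges fell in the same cells.

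Of the 9 measured cAMP response genes, which Gs-coupled receptors such as Ptger2 and Ptger4 can induce but which many other signals induce too, 6 rose, 2 fell and 1 did not pass, where 12.4% of all genes were higher and 11.6% were lower. Nr4a1, an orphan nuclear receptor of the immediate early response, read 9.67, 9.76 and 9.61 in shPARP2 cells, against 8.43, 8.31 and 8.32 in scPARP2 cells, a log2 fold change of 1.33 (SE 0.07, limma adjusted p = 0.000183). Nr4a2 had one of 0.71 (SE 0.09, adjusted p = 0.00312). Those that fell were Pde4b, a phosphodiesterase that breaks down cAMP, at -0.67 (SE 0.10, adjusted p = 0.00458), and Sik1, a kinase that restrains CREB-driven transcription, at -0.56 (SE 0.07, adjusted p = 0.00291). Whether these differences are linked to that of Ptger4 was not tested.

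The identity of the cells was checked with markers. Of 6 myoblast markers, 4 rose and none fell, and all 6 markers of differentiated muscle rose, where 12.4% of all genes were higher and 11.6% were lower. Des of the first list and Ckm of the second passed narrowly (limma adjusted p = 0.0449 and 0.0492). The marker calls were not checked with single arrays left out. The mean log2 signal over the differentiation markers was 10.50 to 10.78 on the shPARP2 arrays, against 9.50 to 9.64 on the scPARP2 arrays, and that over the myoblast markers was 10.12 to 10.51, against 9.85 to 9.92. Myf5, one of the myoblast markers, rose by 1.13 on the log2 scale (SE 0.12, limma adjusted p = 0.00156), while Myod1 and Pax7 did not pass. Myod1 was scattered in shPARP2 cells, at 9.79, 10.19 and 8.89, against 9.79, 9.85 and 9.82 in scPARP2 cells (SD of 0.67 against 0.03, n = 3 each). Whether the lines differed in differentiation, and what part this has in the values of the prostaglandin genes, was not tested. In bulk RNA, a change in the share of differentiated cells cannot be told apart from a change within each cell. Among 8 macrophage and leukocyte markers only Cd68 passed, with a log2 fold change of -0.72, and the mean over these markers was 6.22 to 6.41 on the shPARP2 arrays, against 6.46 to 6.48 on the scPARP2 arrays. None of the 5 mast cell, 5 endothelial and 4 adipocyte markers passed the test in limma, and 2 of these 14 genes, Tek and Vwf, had an unadjusted p under 0.05.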

How the data were processed

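Expression was measured on 6 Affymetrix GeneChip Mouse Gene ST arrays, 3 of shPARP2 and 3 of scPARP2 cells. The authors deposited log2 expression per probe set, and the submitters' processing notes name RMA for it. RMA corrects background, normalizes between arrays and summarizes the probes of a set, and no source used here gives its version. The values entered the fit unchanged and unfiltered. They run from 1.27 to 14.6 over 35556 probe sets. Arrays give no read depth, and the precision is limited by 3 arrays per line.

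Of the probe sets, 21789 name 1 gene in the platform annotation, 1621 name several and 12146 are not named here. limma 3.58.1, run in R 4.3.3, compared the lines through lmFit and eBayes without a covariate, and p-values were adjusted by Benjamini-Hochberg over the whole table. The calculation was tested on simulated data that had the same spread in both lines. The shPARP2 arrays were more scattered than the scPARP2 arrays, so the fit was not tested at such unequal spread. Standard errors are the moderated ones. The prostaglandin genes, the 7 pathway lists and the marker lists were chosen with earlier results of these data known. Genes named were the listed prostaglandin genes, Parp2 and, of each pathway list, up to 4 genes with the largest change among those that passed, or, with none passing, the 2 of smallest p, and exceptions are marked in the text. The replicate numbers were not used to pair the arrays in the main fit, and no label says whether they mark pairs. The alternatives were quantile normalization, centring of arrays on their medians, leaving out probe sets under the 40th percentile of mean signal, testing single-gene probe sets alone, a robust trended variance, weighting of arrays, a replicate block, stricter thresholds (adjusted p under 0.01, or 1.5-fold), averaging the probe sets of each gene and leaving out each array in turn. Promoters were searched with Python 3.11.15, and figures were drawn with matplotlib 3.10.9.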

Additional observations from a re-analysis of the deposited data

How the results depend on the processing

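The 3 prostaglandin genes that fell (Ptges, Hpgd and Ptger4) kept direction and call under every alternative that changed the fit and in which they were tested, and so did Ptgis. The prostaglandin genes that rose numbered 2 and fell to 1 at an adjusted p under 0.01, at a change of at least 1.5-fold and without scPARP2 replicate 1 or 3, so that the count ranged from 1 to 2 when single arrays were left out. Those that fell numbered 2 at a change of at least 1.5-fold, where Ptges was lost, and 2 of 6 tested genes when dim probe sets were left out, which removed Hpgd, Ptger2 and Ptger3. Ptger3, which did not pass, changed sign without shPARP2 replicate 2 (log2 difference of 0.0302), with a range from -0.10 to 0.0302 when single arrays were left out. The other pathway genes that rose numbered 19, with 10 at an adjusted p under 0.01, 8 at a change of at least 1.5-fold and 10 to 20 when single arrays were left out. The log2 fold change of Parp2 lay between -1.15 and -1.01 and passed under all 14 alternatives that changed the fit. Of 123 values of the prostaglandin genes under alternatives that changed the fit, 120 kept direction and side of the threshold, 2 lost the call (Ptger1, adjusted p over all alternatives from 0.00597 to 0.0787) and 1 changed sign. Of 280 values of the pathway genes named by rule, 261 were kept, 16 lost the call, 3 gained it and 0 changed sign. Centring moved the median log2 fold change of all probe sets by 0.02, and 3320 probe sets were higher and 2512 lower after centring (56.9% of calls higher), against 3345 and 3249 as reported (50.7%), so the share moved mainly through fewer lower calls.

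The same replicate numbers occur in both lines, but arrays with the same number did not deviate together (correlations of their deviations from the line means of -0.0507, 0.0925 and 0.0113). Arrays with different numbers gave correlations from -0.101 to 0.0908. These values do not settle whether the numbers mark a shared batch or culture. With the replicate block, 4793 probe sets were called, against 6594 without it. The block left 2 prostaglandin genes higher and 3 lower, and of the other pathway genes 14 were higher and 8 lower. With 3 arrays per line and probe sets as dim as those of Ptger2 and Ptger3, small changes are hard to detect.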
